A study of Mus musculus with 19 samples.

Results

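Spinal cords from mice labelled miR-146a knockout were compared with cords from mice labelled miR-146a wild type. Libraries were chosen by genotype label alone, which gave 9 knockout and 4 wild-type libraries, 13 of the 19 in the series. Bulk RNA was sequenced after removal of ribosomal RNA, and reads were counted per gene. The other 6 libraries, from cultured motor neurons, were not analysed here. Both groups are described by tissue and genotype only, with no treatment. The knockout allele, strain, age, sex, litter, batch and cord level, and whether each library came from its own animal, are not stated. The p-values below therefore measure only the spread between these libraries. Replicate numbers follow the order of deposition and only name a library, and "cord" below stands for a library.

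miR-146a is a microRNA that NF-kB induces and that restrains the same pathway, in part by repressing Irak1 and Traf6, which carry the signal of Toll-like and interleukin-1 receptors to NF-kB. A microRNA guides the silencing complex to messages whose 3′ UTR pairs with its seed, the bases near its 5′ end. In the spinal cord, NF-kB acts in microglia, astrocytes, vessel cells and infiltrating blood cells, and microglial activation accompanies motor neuron disease. miR-146b is a paralogue on another chromosome.

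The mature sequences are shown because the seed, in capitals (bases 2 to 8), is shared by both microRNAs and defines the target sites examined below. They are those of RefSeq on GRCm38.p6, where miR-146a-5p lies at chr11:43374435-43374456 (minus strand) and miR-146b-5p at chr19:46342790-46342811 (plus strand).
miR-146a-5p: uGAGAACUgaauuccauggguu
miR-146b-5p: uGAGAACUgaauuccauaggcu

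A full site was defined as AGTTCTCA on the sense strand of the 3′ UTR, the match to the seed followed by an A. Of 15573 tested protein-coding genes with a 3′ UTR in GENCODE M21, 687 (4.41%) held at least 1 such site in the longest annotated UTR. A further 2456 (15.8%) held only a 7-base part of it, AGTTCTC or GTTCTCA. The sites below, in capitals at the end of 30 bases of UTR sense sequence from GRCm38, belong to the classical targets Irak1 (chrX:74015393-74015422, minus strand, the first of 2 sites), Traf6 (chr2:101697937-101697966, plus strand, the first of 4) and Irak2 (chr6:113694244-113694273, plus strand). They are followed by the 3 full-site genes higher with the smallest p, Il18rap (chr1:40551256-40551285, plus strand, the first of 2), Ikzf2 (chr1:69537237-69537266, minus strand, the first of 2) and Hipk1 (chr3:103742186-103742215, minus strand), and by the lower one with the smallest p, Lsm11 (chr11:45931847-45931876, minus strand).
Irak1: atccctcagactcagaggtcaaAGTTCTCA
Traf6: agaagttaccgctctggtgttgAGTTCTCA
Irak2: acctacagccggtgtctccgcaAGTTCTCA
Il18rap: gaccctatatggtctcccagacAGTTCTCA
Ikzf2: aggttttaatctgatctttgtgAGTTCTCA
Hipk1: ttccattttggatcttcagctcAGTTCTCA
Lsm11: ccttcctccagaaagaagcaggAGTTCTCA

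Total counts ran from 28163289 to 39577247 per library, so 3 counts were worth 0.0758 to 0.1065 CPM (counts scaled to a common library total), and mitochondrial transcripts took 1.61% to 1.99% of counts. Levels are given as normalised CPM, scaled for library size and composition by the TMM method, and are not divided by gene length, so they compare libraries and not genes. Fold changes are log2, knockout over wild type, with the standard error (SE) of edgeR's model. The tissue label was met by transcripts of spinal neurons, since Nefm, the medium neurofilament subunit of large axons, was at 1504 normalised CPM or more and Hoxb9, a positional gene of the trunk cord, at 39.1 or more in all 13 libraries.

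Mir146 itself could not be used to check the genotype, since the precursor gave a single read count, 1 in knockout replicate 5 and 0 in every other cord. Mature microRNAs are too short for this library type. Pttg1, which encodes securin and lies 45.8 kb from Mir146 (chr11:43420250-43426251, minus strand), had 480, 599, 510 and 606 counts in wild-type cords, whereas knockout replicates 1 to 8 held 40 to 65. Between both sets, with 383 counts, lay the library labelled knockout replicate 9.

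It also differed from the other knockout cords at further genes of that chromosome. Of the 135 tested genes within 10 Mb of Mir146, 9 (6.67%) separated knockout replicates 1 to 8 from all wild-type libraries, 6 above and 3 below, where 422 of 22174 tested genes (1.9%) did so over the genome. At 5 of these 9 (Gm39822, Irgm1, Cnot6, Gm5431 and Gfpt2) the library labelled knockout replicate 9 lay within the wild-type range, and at 0 of them within the range of the other knockout libraries. At Lsm11 and Nhp2 it lay beyond the other knockout cords, on the side away from wild type. Lsm11 stood at 41.4 normalised CPM in it, 43.1 to 52.4 in the first 8 knockout cords and at least 53.95 in wild-type cords. For Nhp2 these levels were 10.1, 11.5 to 12.75 and at least 12.8. Over the 422 genes that library lay in the wild-type range at 88 and in the knockout range at 172. Cnot6, a subunit of the deadenylase complex that shortens poly(A) tails, stood at 29.6, 26.5, 30.4 and 26.4 normalised CPM in wild-type cords, 31.5 to 35.2 in the first 8 knockout cords and 28.9 in that library. Col23a1, a transmembrane collagen, was at 35.7, 33.9, 41.8 and 41.4 in wild-type cords and 50.1 to 59.9 in the first 8 knockout cords, but at 26.6 there, below every other cord. The window was chosen after the values were seen, and no test was made of it.

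Sod1 encodes a superoxide dismutase whose mutants cause a familial form of ALS. Its level was 266, 273, 261 and 275 normalised CPM in wild-type cords, 191 to 263 in the first 8 knockout cords and 1948 in the library labelled knockout replicate 9. The labels name no Sod1 allele or transgene. That library was kept in its labelled group, and some of the results are given with and without it.

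**Figure D1:**
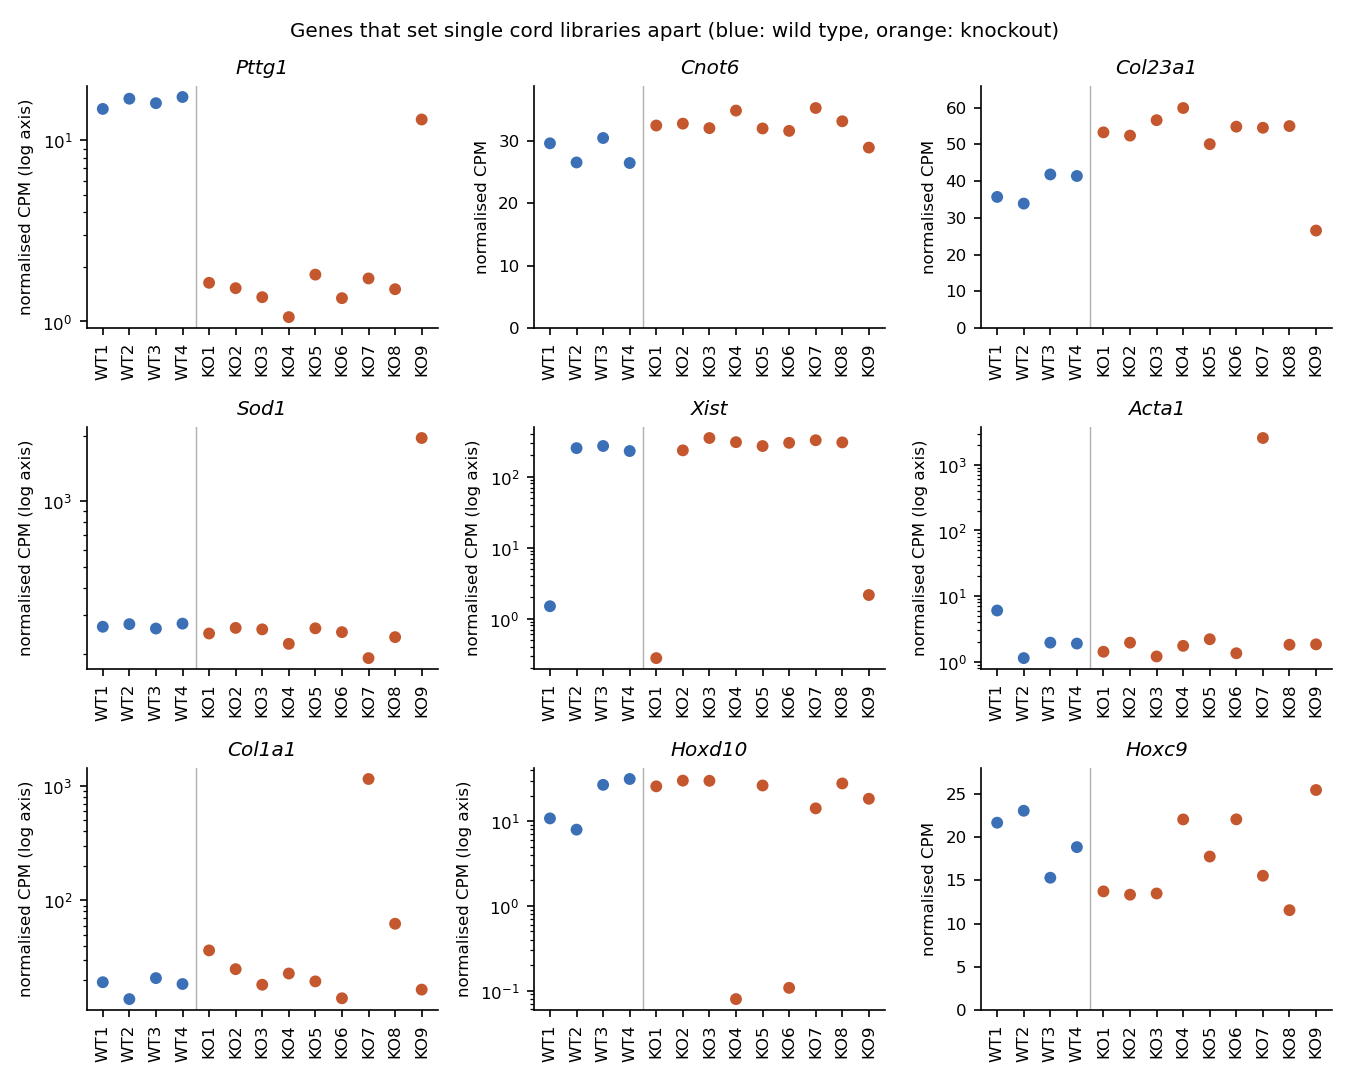
Normalised CPM (log axis where labelled, otherwise linear) of 9 genes in each cord library, with KO1 to KO9 the libraries labelled knockout and WT1 to WT4 those labelled wild type. KO9 lies near the wild-type libraries for Pttg1 and Cnot6 and far above all others for Sod1, KO7 is high in Acta1 and Col1a1, and KO4 and KO6 are low in Hoxd10.

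Other libraries stood apart in what the cords contained. Knockout replicate 7 held transcripts of skeletal muscle, with the actin gene Acta1 at 2563 normalised CPM against at most 6.03 in any other cord, titin (Ttn) at 3660.2, the calcium pump gene Atp2a1 at 1002 and nebulin (Neb) at 928. Of 13 tested skeletal muscle genes 12 stood higher over the knockout group, with a median log2 fold change of 5.81, and without that library 5 did, with a median of −0.25. The same library had the collagen gene Col1a1 at 1149 normalised CPM, against 13.7 to 62.4 elsewhere, and was the highest of the knockout cords in 36 of 59 gene list scores. A list score is the mean log2 level of a list's tested genes minus the wild-type mean. Knockout replicates 4 and 6 had 3 and 4 counts of Hoxd10, a lumbar positional gene, against at least 280 in every other cord, and scored −2.52 and −2.34 over 15 Hox genes of paralogue groups 9 to 13. Wild-type replicates 1 and 2 scored −1.06 and −0.89 there and the other cords −0.47 to 1.16, so the cords differed in positional identity within both groups. The score of Schwann cell genes, which mark nerve roots, was 1.73 and 1.17 in knockout replicates 7 and 8, 0.78 in wild-type replicate 4, 0.45 in knockout replicate 2 and −0.34 to 0.09 in the other 9 cords. Hoxd10 and Cnot6 were picked out after their values were seen. Xist, the RNA of the inactive X, was at 0.278, 2.15 and 1.49 normalised CPM in knockout replicate 1, the library labelled knockout replicate 9 and wild-type replicate 1, which had 1370 to 1565 counts of the Y-linked gene Ddx3y, and the other 10 cords had 0 counts of Ddx3y. The part that these differences in muscle, root, position and sex play in the results below was not tested. Values without those libraries are given below for some genes and lists only, and others change as well. Without knockout replicate 7 the log2 fold change was 0.97 for Cd74, 3.21 for Itgax and 1.83 for Hif3a, against 1.49, 3.89 and 1.68 over all cords. The neutrophil and monocyte median was 2.03 without it and the library labelled knockout replicate 9, against 2.81.

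The spread between knockout cords exceeded that between wild-type cords. The common biological coefficient of variation was 0.347 in the knockout and 0.106 in the wild-type group, and 0.182 in knockout cords without replicate 7 and the library labelled replicate 9. Of the 22174 tested genes, 78.3% had the larger standard deviation of log2 level among knockout cords. On the first principal component, with 61.3% of the variance of the 1000 most variable genes, knockout replicate 7 lay at 67.3 and knockout replicates 1 and 4 at 12.7 and 17.5. Knockout replicate 2 (−17.35) lay among the wild-type cords (−14.76 to −17.61). The largest loadings on that component were those of skeletal muscle genes (Acta1, Atp2a1, Ttn, Tnnt3 and Neb), which were high in knockout replicate 7.

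edgeR, the main test, called no single gene against this spread, while DESeq2 and limma called some. edgeR called 0 of 22174 genes (0%) at an adjusted p of 0.05, DESeq2 called 381 (1.72%) and limma with quality weights called 3 (0.0135%), Il18rap, Pttg1 and Ttr. At an unadjusted p below 0.05 edgeR had 1670 genes higher (7.53%) and 1507 lower (6.8%). All 9 knockout cords lay above all wild-type cords for 112 genes (0.505%) and below them for 178 (0.803%). Of all tested genes 53.1% had a positive log2 fold change, and the median was 0.017. Scaled by library size alone, 2012 genes were higher and 950 lower at an unadjusted p below 0.05. edgeR without knockout replicate 7 and the library labelled knockout replicate 9 called 8 of 21573 genes (0.0371%), Il1r1, Alas2, Slc4a1, Dchs1, Col23a1 and Lpp higher and Pttg1 and Ttr lower. Over the 138 genes given below or above with a fold change, the adjusted p of edgeR ran from 0.179 to 0.679, so "higher" and "lower" describe levels and not calls.

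Among the 15 protein-coding genes higher with the smallest p, 13 had all 9 knockout cords above all wild-type cords, against 0.505% of all tested genes. Choosing genes by p in the same libraries favours groups without overlap. The 15 included genes known from red blood cells, interleukin-1 signalling and planar cell polarity. In a bulk tissue, a difference in the number of cells of a type and one in RNA per cell cannot be told apart. Alas2, which starts haem synthesis in red cell precursors, stood at 1.21, 0.652, 0.818 and 1.203 normalised CPM in wild-type cords against 3.398 to 22.9 (median 7.53) in knockout cords, a log2 fold change of 3.13 (SE 0.53). Slc4a1, the anion exchanger of red cells, stood at 0.342, 0.114, 0.126 and 0.143 against 0.817 to 12.8 (median 2.94), a log2 fold change of 4.33 (SE 0.80). The groups did not overlap for either gene, and knockout replicate 7 was the highest cord for both. Ccl2, the monocyte chemoattractant, had 421 counts over the 9 knockout cords and 3 over the 4 wild-type cords, with every knockout cord above every wild-type cord.

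Several of the 15 differed by little but in every cord. Dchs1, a giant cadherin of planar cell polarity, stood at 27.3, 32.7, 29.9 and 26.4 normalised CPM in wild-type cords against 33.99 to 49.5 (median 39.1) in knockout cords, a log2 fold change of 0.45 (SE 0.089). Fat4, its binding partner, stood at 36.8, 37.9, 35.9 and 29.8 against 38.7 to 74.4 (median 42.2), also without overlap, with the library labelled knockout replicate 9 highest. Fzd3, a Wnt receptor that guides axons, stood at 65.8, 71.2, 65.6 and 60.9 against 72.9 to 94.4 (median 80.5), a log2 fold change of 0.32 (SE 0.070). These differences were small against the level and left the lowest knockout cord just above the highest wild-type cord. Fmo1, a flavin monooxygenase, had a log2 fold change of 0.86 (SE 0.18) and Plxnc1, a semaphorin receptor, 0.42 (SE 0.10), each with the knockout cords all above. Sspo, the glycoprotein of Reissner's fibre in the central canal, stood at 7.397, 6.58, 6.201 and 5.81 against 7.41 to 16.1 (median 11.6), a log2 fold change of 0.76 (SE 0.17). Folh1, a glutamate carboxypeptidase of astrocytes, had a log2 fold change of 0.35 (SE 0.080) with 8 of 9 knockout cords above, and Fam167a 0.99 (SE 0.20) with 9 of 9.

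Among the 15 lower genes, also chosen by p, 12 had all 9 knockout cords below all wild-type cords, against 0.803% of all tested genes. Apart from Ttr the log2 fold changes of the 15 lay between −0.72 and −0.20. Ttr, the thyroxine carrier of the choroid plexus, stood at 5.56, 3.23, 1.92 and 2.81 normalised CPM in wild-type cords against 0.134 to 0.922 (median 0.432) in knockout cords, a log2 fold change of −2.91 (SE 0.43). Of the 12 tested choroid plexus genes 7 stood higher, 2 of them and 2 lower ones at an unadjusted p below 0.05, and the median was 0.18. Tyro3, a receptor kinase of neurons and glia that binds Gas6, stood at 119.8, 132, 118 and 124 against 90.9 to 108 (median 100.1), a log2 fold change of −0.29 (SE 0.057). Apln, the peptide apelin made by endothelial tip cells and neurons, stood at 68.5, 81.5, 63.3 and 51.4 against 29.4 to 51.5 (median 41.8), a log2 fold change of −0.72 (SE 0.14). The groups did not overlap for Tyro3, and 1 knockout cord reached the wild-type range for Apln. Acaa1a, a thiolase of peroxisomal fatty acid oxidation, stood at 76.7, 75.3, 77.8 and 75.95 against 63.5 to 69.1 (median 65.8), a log2 fold change of −0.20 (SE 0.042), and Abcd2, a peroxisomal fatty acid transporter, had −0.25 (SE 0.057). Dnajb2, a neuronal co-chaperone, had a log2 fold change of −0.24 (SE 0.049) and Hip1r, an endocytic adaptor, −0.22 (SE 0.050), both without overlap. Of the others Entpd3, a nucleotidase, Abcb9, a lysosomal peptide transporter, Paqr7, a membrane progestin receptor, Desi1, a SUMO protease, and Vxn, a neurogenic factor, had log2 fold changes of −0.34, −0.34, −0.30, −0.32 and −0.30 with all knockout cords below. Metrn, a glial differentiation factor, and Enho, the energy homeostasis peptide, had −0.37 and −0.36 with 8 of 9 and 8 of 9 below.

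**Figure D2:**
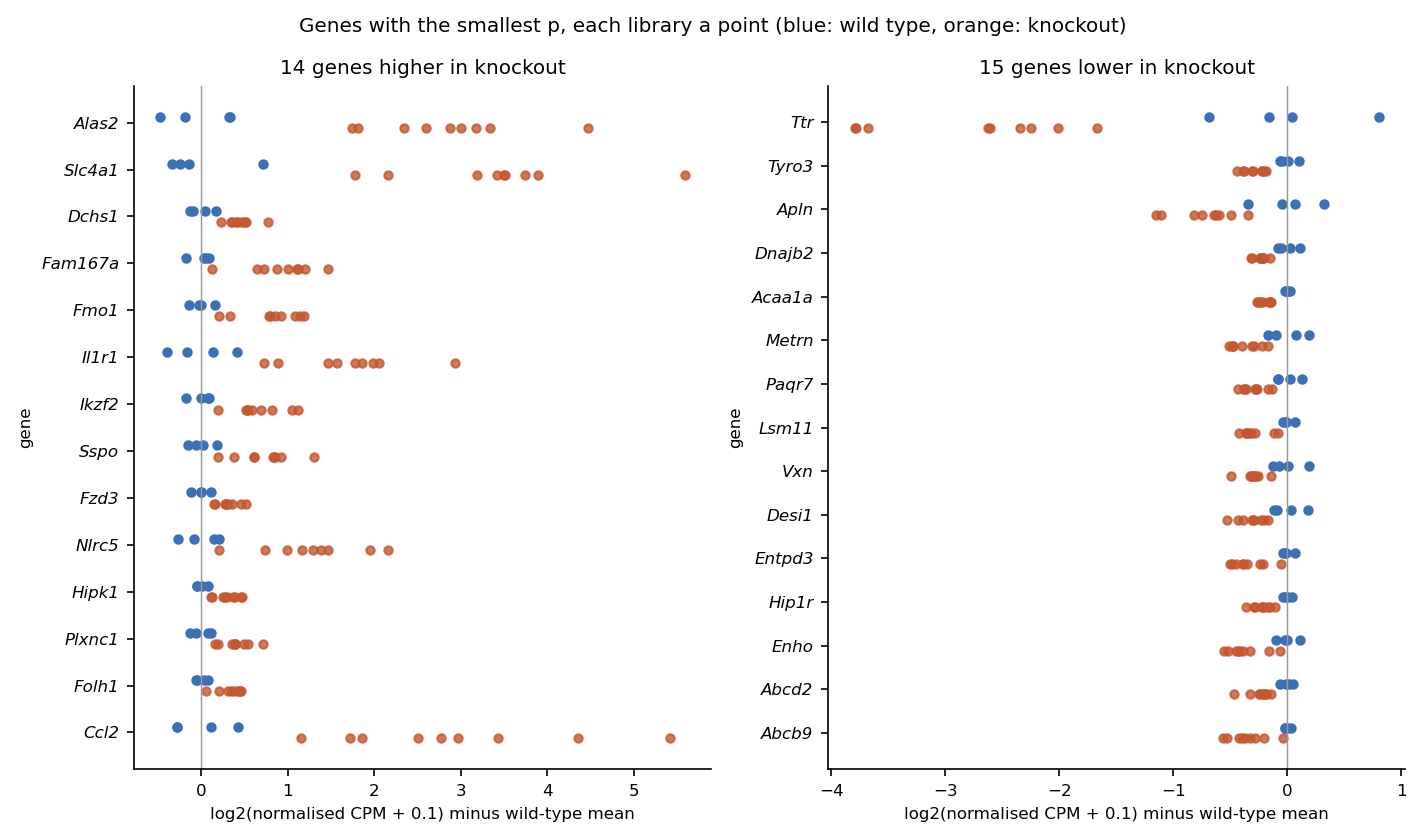
Log2 normalised CPM of each cord minus the wild-type mean for 14 of the 15 protein-coding genes higher and the 15 lower with the smallest unadjusted p, with knockout and wild-type libraries as separate points. Knockout points lie to 1 side of all wild-type points for 12 of the higher and 12 of the lower genes shown.

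Receptors of the Toll and interleukin-1 family stood higher within the pathway that miR-146a restrains. Of 10 tested receptors all 10 stood higher and 8 had an unadjusted p below 0.05, with a median log2 fold change of 1.53 and a range of 0.03 to 6.79. Il1r1, the signalling receptor of interleukin-1 (chr1:40225080-40317257, plus strand), stood at 2.33, 1.99, 2.896 and 3.55 normalised CPM in wild-type cords against 4.41 to 20.8 (median 9.28) in knockout cords, a log2 fold change of 1.84 (SE 0.37). Il18rap, the accessory chain of the interleukin-18 receptor, had 4 to 48 counts in each knockout cord and 0 in all 4 wild-type cords, where 3 counts a library are 0.0812 to 0.0947 CPM. Tlr7, the endosomal sensor of single-stranded RNA, stood at 1.399, 1.84, 0.944 and 1.43 against 1.16 to 12.97 (median 4.22), a log2 fold change of 1.90 (SE 0.53). Every knockout cord was above the wild-type cords for Il1r1 and Il18rap, and for Tlr7 knockout replicate 2 lay among them.

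The differences were smaller for adaptors, kinases and NF-kB subunits. Of 10 adaptors and kinases, which include Myd88, the Irak kinases and Traf6, 9 stood higher and 2 had an unadjusted p below 0.05, with a median of 0.12. The 5 NF-kB subunits all stood higher, at log2 fold changes of 0.24 to 0.87, and 1 had an unadjusted p below 0.05. Of 8 inhibitors and members of the IkB family 7 stood higher, 4 of them at an unadjusted p below 0.05, with a median of 0.78. Il1rn, the secreted antagonist of the interleukin-1 receptor, stood at 0, 0.0567, 0.0315 and 0 normalised CPM in wild-type cords against 0.161 to 3.43 (median 0.341) in knockout cords, a log2 fold change of 4.76 (SE 1.21). All knockout cords were above, and knockout replicate 7 was far above the others. The adhesion molecules Icam1 and Vcam1 both stood higher, with a median of 1.3. Over the whole list 33 of 35 genes stood higher, 17 at an unadjusted p below 0.05 and 9 called by DESeq2, with a median of 0.60. In score 8 of 9 knockout cords were above the wild-type cords, at 0.25 to 1.69, and knockout replicate 2 was at 0.07.

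The classical targets differed little in level. Irak1, the receptor-associated kinase, stood at 45.4, 46.2, 46.6 and 42.96 normalised CPM in wild-type cords against 41.05 to 60.7 (median 48.9) in knockout cords, a log2 fold change of 0.13 (SE 0.082). Traf6, the ubiquitin ligase next in the chain, stood at 29.7, 28.1, 29.3 and 24.03 against 25.8 to 36.5 (median 29.03), a log2 fold change of 0.11 (SE 0.089). Irak2, a second receptor kinase, stood at 23.2, 25.96, 20.8 and 24.9 against 21.97 to 32.05 (median 26.1), a log2 fold change of 0.16 (SE 0.10). The groups overlapped for all of these genes, with 6, 4 and 5 of 9 knockout cords above the wild-type cords. Notch1, a receptor of cell fate decisions, had 0.18 (SE 0.086) and Card10, an NF-kB scaffold, −0.17 (SE 0.11), the latter with 5 of 9 knockout cords below.

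Of 36 tested genes reported as miR-146a targets, 24 stood higher, 10 at an unadjusted p below 0.05 and 3 called by DESeq2, with a median of 0.12. None of those 10 held a full site in the longest annotated UTR. Reported targets with a full site had log2 fold changes of −0.17 (Card10) to 0.18 (Notch1). The smallest unadjusted p of edgeR among them was 0.058, at Notch1. The score of the 36 genes was above the wild-type cords in 9 of 9 knockout cords, at 0.04 to 0.73 against −0.03 to 0.02, with knockout replicate 2 lowest. Fas, a death receptor, stood at 1.49, 1.87, 1.48 and 1.89 against 1.77 to 5.77 (median 3.23), a log2 fold change of 1.08 (SE 0.31). Irf5, a transcription factor of Toll signalling in myeloid cells, stood at 4.48, 5.45, 4.66 and 4.53 against 4.69 to 23.5 (median 8.71), a log2 fold change of 1.21 (SE 0.39). The library labelled knockout replicate 9 lay within the wild-type range at Fas and knockout replicate 2 at Irf5, and the other 8 knockout cords were above at each. Bcl2, an inhibitor of apoptosis, had a log2 fold change of 0.36 (SE 0.12) with 8 of 9 knockout cords above.

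Genes with a full site, as printed above for 7 of them, stood higher more often than all genes, while within a window of UTR length the share that stood higher was close to that of genes with no site. Of the 687 genes, 56.9% stood higher and 9.61% were higher at an unadjusted p below 0.05, against 49.99% and 9.01% of all 15573 genes. Their median log2 fold change was 0.027, and −0.0017 for genes with no site. Without wild-type replicate 4 the median of full-site genes was 0.00455, with 52.0% of them higher, and under the other alternatives over all UTRs it was 0.0154 to 0.0545. The median of genes with no site moved as well. It was −0.0094 with limma, which gave the 0.0154, and 0.0234 with library sizes alone, which gave the 0.0545. The 3′ UTRs of full-site genes were longer, with a median of 2727 bases against 1145. Among genes with a 3′ UTR of 2000 to 4000 bases, 50.8% of the 246 with a full site and 51.8% of the 2126 with none stood higher, and at an unadjusted p below 0.05 11.4% and 8.51% were higher and 4.88% and 7.9% lower. The length window was added after the values were seen. The 5 full-site genes higher with the smallest p include Il18rap, whose counts are given above. Ikzf2, the transcription factor Helios of regulatory T cells, stood at 6.96, 7.38, 7.397 and 6.13 normalised CPM in wild-type cords against 8.001 to 15.2 (median 10.5) in knockout cords, a log2 fold change of 0.70 (SE 0.15). Hipk1, a nuclear kinase, stood at 142, 155, 147 and 142 against 158 to 202 (median 180.4), a log2 fold change of 0.31 (SE 0.071). All knockout cords were above for both genes. Elmsan1, a deacetylase complex subunit, and Paqr5, a membrane progestin receptor, had log2 fold changes of 0.33 and 0.80. Lsm11, a subunit of the complex that processes histone messages, carried a full site and stood lower, at 54.9, 57.96, 53.95 and 54.99 against 41.4 to 52.4 (median 44.2), a log2 fold change of −0.29 (SE 0.064) with all knockout cords below. It lies 2.55 Mb from Mir146. Tomm40l, a mitochondrial import channel, Fgf9, a fibroblast growth factor, and Prpf19, a splicing factor, also stood lower, at −0.26, −0.30 and −0.21. Rnase13, of the ribonuclease A family, stood at 0.2797, 2.13, 0.283 and 0.344 normalised CPM in wild-type cords against 0.0538 to 0.446 (median 0.1595), a log2 fold change of −2.10 (SE 0.57). Wild-type replicate 2 was highest, and without it the gene did not pass the filter on low counts. Nor did it pass without knockout replicate 7, or without knockout replicates 4 and 6.

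**Figure D3:**
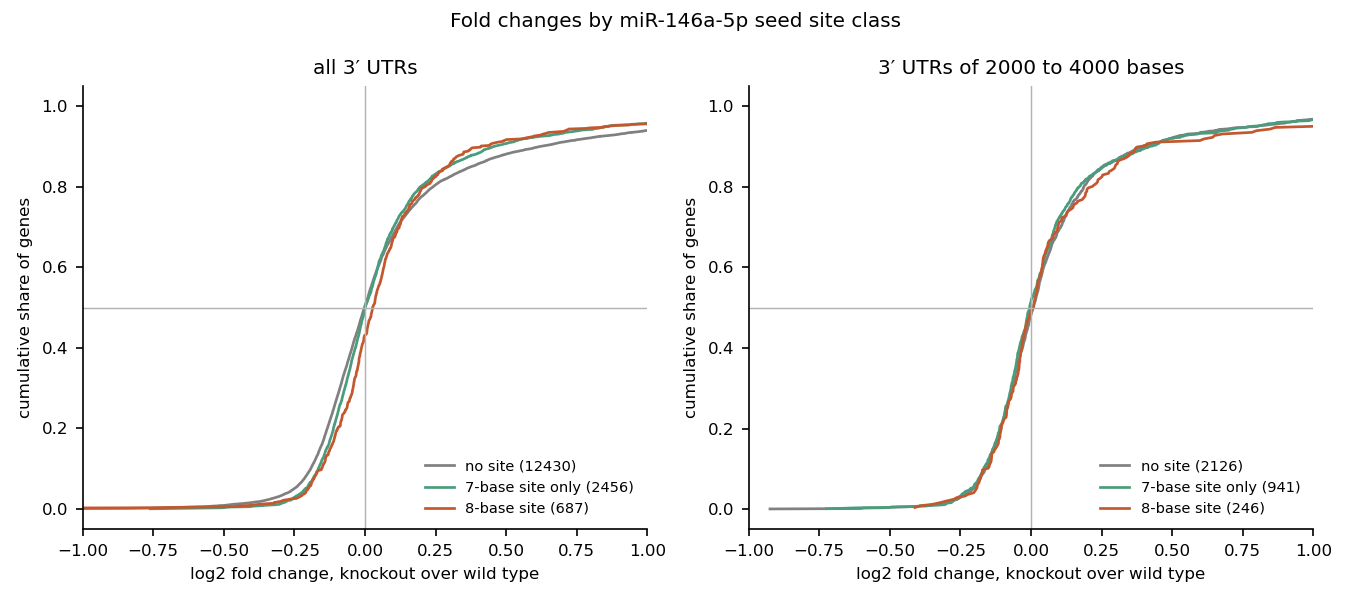
Cumulative share of genes by log2 fold change, knockout over wild type, for genes with a full site, a 7-base site only or no site in the 3′ UTR, over all UTRs and over UTRs of 2000 to 4000 bases. The curve of full-site genes lies slightly to the right over all UTRs (median 0.027) and close to the others in the length window (median 0.0096, and 0.0080 with no site).

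Chemokines and complement had among the largest medians of all lists. Of 24 tested chemokine and cytokine genes 21 stood higher, 16 at an unadjusted p below 0.05 and 9 called by DESeq2, and 2 were lower at an unadjusted p below 0.05, with a median of 1.86. Ccl3, a chemokine of activated microglia, stood at 0.249, 0.482, 0.06295 and 0.344 normalised CPM in wild-type cords against 0.283 to 7.21 (median 1.84) in knockout cords, a log2 fold change of 3.27 (SE 0.85). Ccl12, a monocyte chemokine, had 3.44 (SE 0.96) and Cxcl10, a T cell chemokine induced by interferon, 2.27 (SE 0.58). For each of these, 8 of 9 knockout cords were above the wild-type cords and the exception was knockout replicate 2 at Ccl3 and Ccl12 and the library labelled knockout replicate 9 at Cxcl10. Chemokine genes of this family have similar copies, among which unique alignment can lose reads.

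All 20 tested complement genes stood higher, 14 at an unadjusted p below 0.05 and 2 called by DESeq2, with a median of 1.72. C3ar1, the receptor of the C3a fragment on microglia, stood at 2.64, 2.497, 2.99 and 3.98 against 2.94 to 44.9 (median 12.98), a log2 fold change of 2.49 (SE 0.74). C4b, component C4, stood at 153, 165, 145 and 172 against 104 to 1061 (median 452), a log2 fold change of 1.85 (SE 0.54). Knockout replicate 2 was below the wild-type cords at C4b. In complement score knockout replicate 7 was highest at 2.74, knockout replicate 2 lay in the wild-type range and the other 7 knockout cords were at 0.17 to 1.62.

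Microglial genes of the disease-associated state stood higher while the homeostatic genes differed less. Of 26 disease-associated genes 24 stood higher, 22 at an unadjusted p below 0.05 and 11 called by DESeq2, with a median of 1.48. Itgax, the integrin CD11c, stood at 0.684, 0.936, 1.07 and 1.29 normalised CPM in wild-type cords against 0.622 to 59.8 (median 7.72) in knockout cords, a log2 fold change of 3.89 (SE 1.13). Clec7a, a pattern receptor of phagocytes, stood at 0.995, 1.53, 0.787 and 1.43 against 0.933 to 26.3 (median 6.82), a log2 fold change of 2.99 (SE 0.81). Lilrb4a, an inhibitory receptor of myeloid cells, had 3.48 (SE 0.94). In each of these 3 genes knockout replicate 2 lay lowest of the knockout cords and 8 of 9 were above the wild-type range. Of 18 homeostatic genes 17 stood higher, 7 at an unadjusted p below 0.05, with a median of 0.50. Csf1r, the receptor on which microglia depend, had a log2 fold change of 0.97 (SE 0.37). Bin1, a membrane-bending protein also made by oligodendrocytes and neurons, was the exception at −0.16 (SE 0.047) with all 9 knockout cords below. Of 21 lysosome genes 17 stood higher, 7 at an unadjusted p below 0.05 with 2 lower, at a median of 0.25.

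Reactive astrocyte genes stood higher and astrocyte identity genes did not. Of 27 reactive genes 26 stood higher, 25 at an unadjusted p below 0.05 and 14 called by DESeq2, with a median of 1.71. Vim, the intermediate filament vimentin, stood at 85.3, 95.1, 75.5 and 91.6 normalised CPM in wild-type cords against 70.7 to 875 (median 286) in knockout cords, a log2 fold change of 2.07 (SE 0.60). Gfap, the astrocyte filament, stood at 1737, 2075, 1318 and 1239.8 against 1082 to 6054 (median 2662), a log2 fold change of 1.04 (SE 0.43). Both groups overlapped at Gfap, where 6 of 9 knockout cords were above, and at Vim 8 were. Osmr, the oncostatin M receptor, had 1.73 (SE 0.47), Timp1, an inhibitor of matrix proteases, 3.76 (SE 1.15), and Tgm1, a transglutaminase, 4.37 (SE 1.25). Of 20 astrocyte identity genes 8 stood higher, with a median of −0.061, 2 higher and 3 lower at an unadjusted p below 0.05. Slc7a10, a serine transporter of astrocytes, stood at 90.8, 99.4, 94.6 and 87.3 against 40.2 to 94.7 (median 63.9), a log2 fold change of −0.48 (SE 0.16) with 8 of 9 below, while Slc1a3, a glutamate transporter, had 0.33 (SE 0.13).

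**Figure D4:**
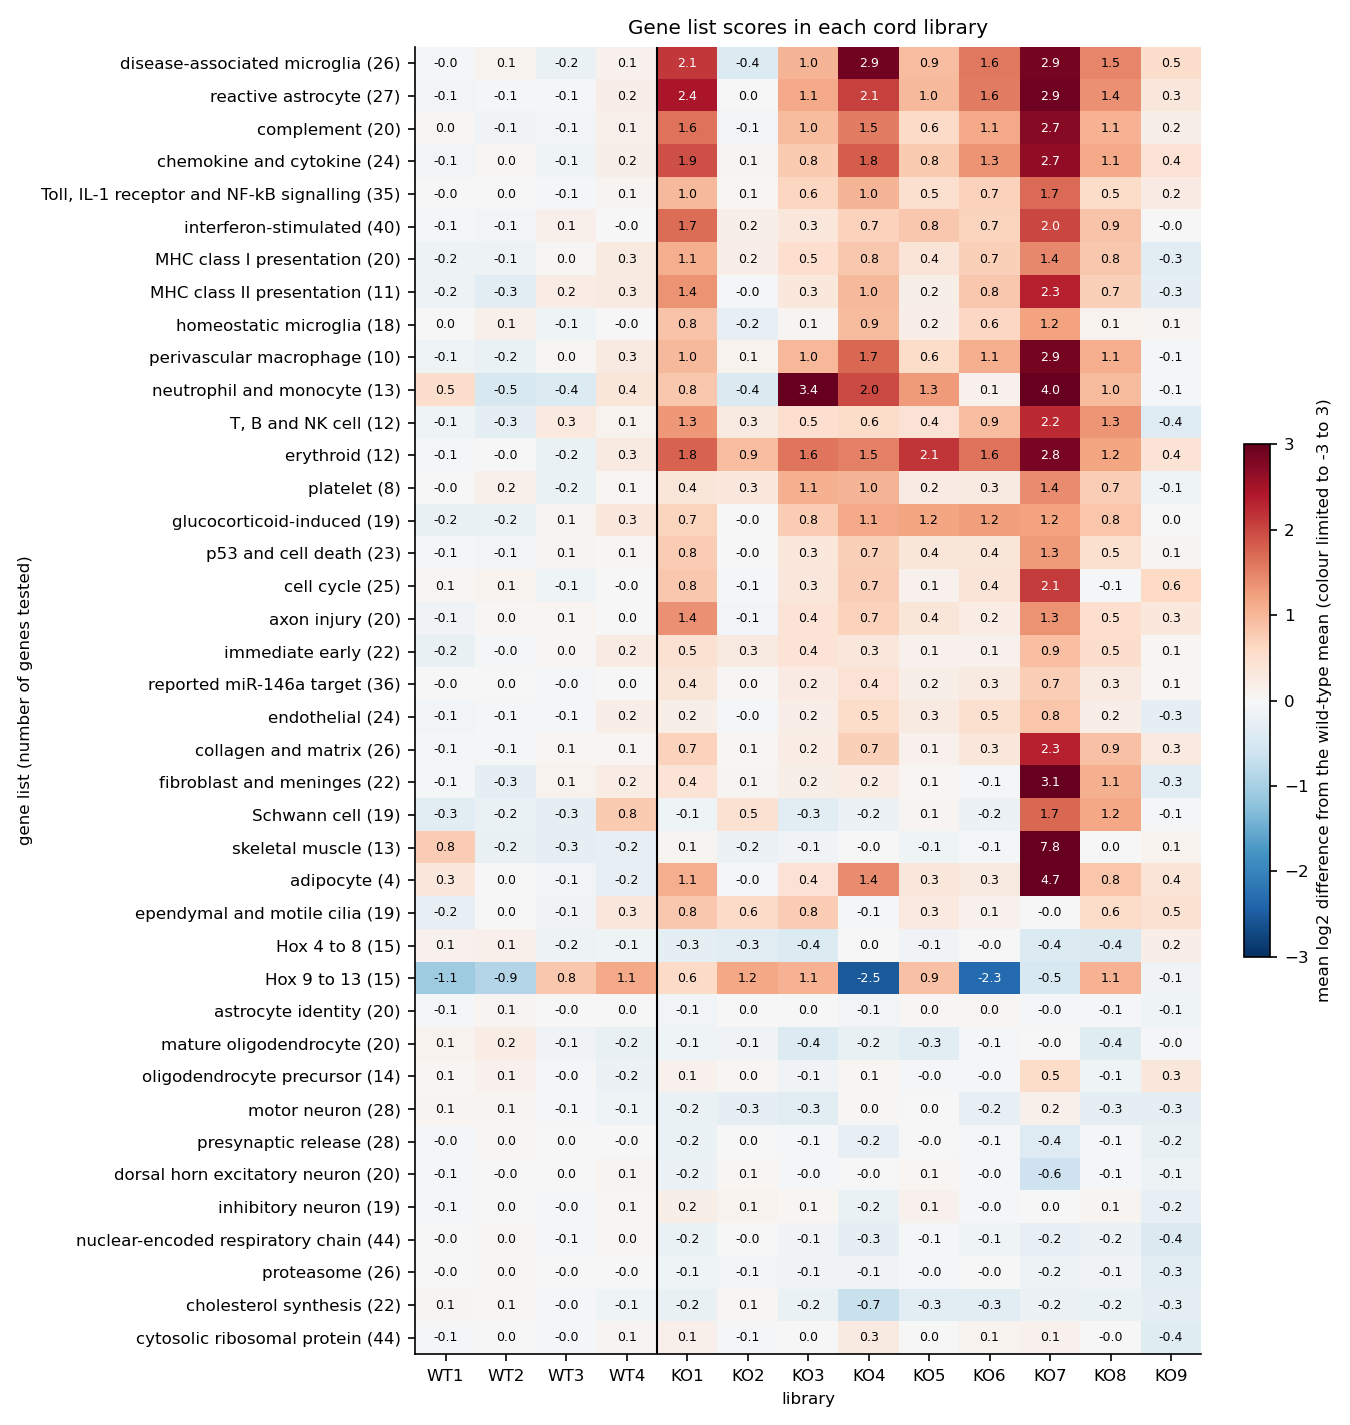
Score of 40 gene lists in each of the 13 cords, as the mean log2 normalised CPM of the list minus the wild-type mean, with the colour limited to ±3. Immune lists are high in KO7, KO1 and KO4, near 0 in KO2 and low in KO9 among the knockout cords, and muscle genes are high in KO7.

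Interferon and antigen presentation genes stood higher in most knockout cords. Of 40 interferon-stimulated genes 39 stood higher, 29 at an unadjusted p below 0.05 and 6 called by DESeq2, with a median of 0.97. Oas3, a sensor of double-stranded RNA, stood at 0.0311, 0.199, 0.283 and 0.229 normalised CPM in wild-type cords against 0.339 to 4.39 (median 0.587) in knockout cords, a log2 fold change of 2.74 (SE 0.81). Mx1, an antiviral GTPase, had 1.98 (SE 0.55), and Irgm1, a GTPase induced by interferon gamma that lies 5.49 Mb from Mir146, 0.69 (SE 0.21). The groups did not overlap at Oas3, and knockout replicate 8 overlapped at Mx1. Of 20 MHC class I genes 19 stood higher, 15 at an unadjusted p below 0.05 and 3 called by DESeq2, with a median of 0.81. Nlrc5, the transactivator of these genes, stood at 3.67, 3.21, 4.501 and 4.33 against 4.495 to 17.7 (median 9.67), a log2 fold change of 1.38 (SE 0.31), and knockout replicate 2 lay within the wild-type range. Psmb9, an immunoproteasome subunit, had 1.31 (SE 0.40) and B2m, the class I light chain, 1.01 (SE 0.37). All 11 class II genes stood higher, 3 at an unadjusted p below 0.05, with a median of 1.04, and Cd74, the invariant chain, had 1.49 (SE 0.68).

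Genes of blood cells stood higher as well. Of 12 erythroid genes 8 stood higher, 7 at an unadjusted p below 0.05 and 7 called by DESeq2, with a median of 2.94. The erythroid score was above the wild-type cords in 9 of 9 knockout cords, at 0.40 to 2.84 against −0.19 to 0.26, with the library labelled knockout replicate 9 lowest. Hbb-bs and Hba-a1, globin genes with near-identical copies whose reads could be split, had log2 fold changes of 2.97 (SE 0.70) and 2.96 (SE 0.78). Ppbp, the platelet chemokine, had 206 counts in the knockout and 6 in the wild-type cords, though the 8 tested platelet genes had a median of 0.69 that was 0.135 and 0.087 without knockout replicate 3 or 7. Of 13 neutrophil and monocyte genes 12 stood higher, 9 at an unadjusted p below 0.05, with a median of 2.81, and of 12 lymphocyte and NK cell genes all 12 stood higher, 5 at an unadjusted p below 0.05, with a median of 1.47. All 10 perivascular macrophage genes stood higher, 7 at an unadjusted p below 0.05, with a median of 1.51. Mrc1, the mannose receptor, stood at 1.46, 1.19, 2.01 and 2.32 normalised CPM in wild-type cords against 2.55 to 15.2 (median 4.38) in knockout cords, a log2 fold change of 1.61 (SE 0.47). All 9 knockout cords were above the wild-type cords at Mrc1.

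Vessel and glucocorticoid-responsive genes were also among those higher. Of 24 endothelial genes 20 stood higher, 7 at an unadjusted p below 0.05 with 2 lower, and the median was 0.26. Vwf, the von Willebrand factor, stood at 27.6, 33.4, 51.2 and 81.1 normalised CPM in wild-type cords against 38 to 572 (median 168) in knockout cords, a log2 fold change of 2.15 (SE 0.67). Wild-type replicate 4 was the highest of its group at Vwf, and 7 of 9 knockout cords were above it. Slco1a4 and Abcb1a, transporters of the blood-brain barrier, had 0.38 (SE 0.10) and 0.36 (SE 0.11). All 19 glucocorticoid-induced genes stood higher, 8 at an unadjusted p below 0.05 and 6 called by DESeq2, with a median of 0.67. Hif3a, a hypoxia factor that glucocorticoids induce, stood at 5.84, 6.64, 7.59 and 5.53 against 4.87 to 30.9 (median 25.2), a log2 fold change of 1.68 (SE 0.48). Zbtb16, a zinc finger repressor, had 0.88 (SE 0.25), and Mt2, a metallothionein, 1.23 (SE 0.36). Knockout replicate 7 was below all wild-type cords at Hif3a and the other 8 were above. In score knockout replicate 2 and the library labelled knockout replicate 9 were at −0.02 and 0.02 where the other knockout cords were at 0.67 to 1.25. Of 18 pericyte and smooth muscle genes 16 stood higher, with a median of 0.21 that was 0.11 without knockout replicate 7 and the library labelled knockout replicate 9.

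Matrix genes were highest in knockout replicate 7. Of 26 collagen and matrix genes 24 stood higher, 8 at an unadjusted p below 0.05, with a median of 0.79 that was 0.34 without that library and the library labelled knockout replicate 9. Fn1, fibronectin, stood at 54.1, 49.99, 57.9 and 72.8 normalised CPM in wild-type cords against 57.3 to 913 (median 153) in knockout cords, a log2 fold change of 2.03 (SE 0.70), and 1.52 without those libraries. The fibroblast and meningeal list, with 21 of 22 higher and 3 at an unadjusted p below 0.05, had a median of 1.03 and of 0.31 without them, and Fmod, a small proteoglycan, had 1.12 (SE 0.39). Lpp, an actin-associated adhesion protein, stood at 13.4, 13.3, 11.6 and 12.8 against 16.6 to 60.98 (median 18.6), without overlap.

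**Figure D5:**
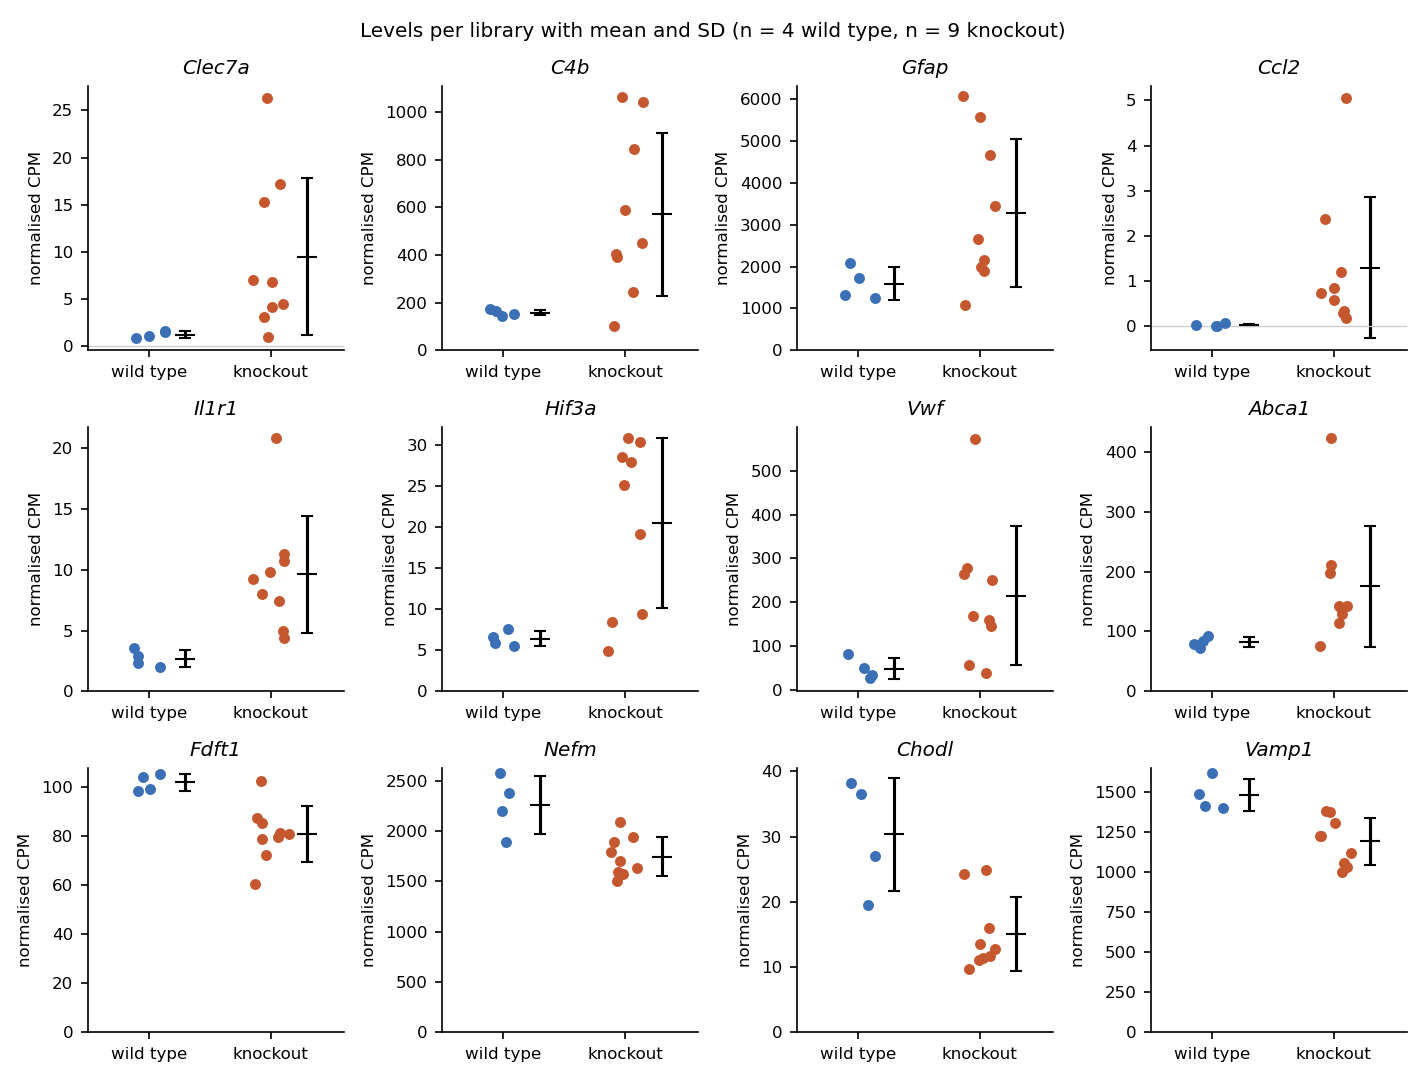
Normalised CPM (linear axis) of 12 genes in each cord, with the mean and standard deviation of each group. Clec7a, C4b, Gfap, Ccl2, Il1r1, Hif3a, Vwf and Abca1 are higher in most of the 9 knockout cords, while Fdft1, Nefm, Chodl and Vamp1 are lower.

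Most genes of the cell division, cell death and axon injury lists stood higher. Of 25 cell cycle genes 23 stood higher, 9 at an unadjusted p below 0.05, with a median of 0.60 that was 0.36 without knockout replicate 7 and the library labelled knockout replicate 9, and Pttg1 was among the lower. Ccnb1, cyclin B1, stood at 0.0932, 0.1702, 0.06295 and 0.0573 normalised CPM in wild-type cords against 0.113 to 2.47 (median 0.4303) in knockout cords, a log2 fold change of 2.72 (SE 0.83). Cenpf, a kinetochore protein, had 2.02 (SE 0.70) with all knockout cords above, and 1.38 without knockout replicate 7. Of 23 p53 and cell death genes 21 stood higher, 9 at an unadjusted p below 0.05, with a median of 0.46. Casp4, the inflammatory caspase that senses lipopolysaccharide, stood at 0.124, 0.1702, 0.126 and 0.544 against 0.443 to 4.6 (median 1.23), a log2 fold change of 2.78 (SE 0.71), and Gsdmd, the pore protein it cleaves, had 1.40 (SE 0.43). Of 20 axon injury genes 15 stood higher, 5 at an unadjusted p below 0.05, with a median of 0.38. Atf3, a transcription factor of injured neurons and other stressed cells, stood at 0.404, 1.305, 1.26 and 1.17 against 0.678 to 48.5 (median 6.65), a log2 fold change of 3.61 (SE 1.15). Sprr1a, a gene of regenerating axons, stood at 0.124, 0.284, 0.535 and 0.143 against 0.0565 to 102 (median 8.21), and it was highest in knockout replicate 1 and lowest in knockout replicate 2. Gal, the neuropeptide galanin, had 1.22 (SE 0.57), and Sox11, a transcription factor of growing axons, 0.41 (SE 0.13). Of 22 immediate early genes 19 stood higher, 5 at an unadjusted p below 0.05, with Fos at 0.70 (SE 0.21) and Junb at 1.04 (SE 0.35). Arc, a synaptic immediate early gene, was lower, at −0.50 (SE 0.12) with 8 of 9 below, and only knockout replicate 2 lay in the wild-type range.

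Genes of energy and lipid metabolism stood lower by small amounts. All 44 nuclear-encoded genes of the respiratory chain stood lower, 28 at an unadjusted p below 0.05 and 0 called by DESeq2, with a median of −0.19. Ndufs7, a complex I subunit, stood at 159, 174, 152 and 163 normalised CPM in wild-type cords against 122 to 153 (median 134) in knockout cords, a log2 fold change of −0.25 (SE 0.068). Of the 13 mitochondrially encoded proteins 10 stood lower, 1 at an unadjusted p below 0.05, with mt-Co2 at −0.23 (SE 0.079). All 26 proteasome genes stood lower, 10 at an unadjusted p below 0.05, with a median of −0.12 and Psmb7 at −0.20 (SE 0.071). Of 22 cholesterol synthesis genes 21 stood lower, 12 at an unadjusted p below 0.05, with a median of −0.28. Fdft1, squalene synthase, stood at 106, 104, 99.4 and 98.5 against 60.6 to 102 (median 80.8), a log2 fold change of −0.33 (SE 0.10). Idi1, an isomerase of the same route, had −0.42 (SE 0.15) and Srebf2, its transcription factor, −0.26 (SE 0.13). In score 8 of 9 knockout cords were below the wild-type range, with knockout replicate 4 lowest at −0.67 and knockout replicate 2 at 0.06. Of 16 sterol efflux and lipoprotein genes 11 stood higher, 4 at an unadjusted p below 0.05 with 2 lower, and the median was 0.19. Abca1, the sterol efflux pump, stood at 72.5, 93, 79.7 and 83.9 against 75.9 to 424 (median 142), a log2 fold change of 1.09 (SE 0.38), and Ch25h, which makes 25-hydroxycholesterol, had 3.29 (SE 0.96). Of 22 glycolysis genes 17 stood lower, 4 at an unadjusted p below 0.05 with 2 higher, and Eno2, neuronal enolase, had −0.24 (SE 0.088) while Hk2, an inducible hexokinase, had 1.51 (SE 0.58). Of 44 cytosolic ribosomal protein genes 30 stood higher, 0 at an unadjusted p below 0.05, with a median of 0.030.

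More motor neuron genes stood lower than higher. Of 28 tested, 17 stood lower and 11 higher, with a median of −0.20. At an unadjusted p below 0.05 8 were lower and 1 higher, and DESeq2 called 3 lower. In score 6 of 9 knockout cords were below the wild-type range and 1 above it, at −0.33 to 0.16 against −0.12 to 0.09. The genes named here are all among the lower ones. Chodl, a marker of fast motor neurons, stood at 38.2, 36.5, 27.04 and 19.6 normalised CPM in wild-type cords against 9.705 to 24.9 (median 12.7) in knockout cords, a log2 fold change of −1.01 (SE 0.26). Nefm stood at 2572, 2374, 2198 and 1888 against 1504 to 2093 (median 1698), a log2 fold change of −0.37 (SE 0.10), and Nefl, the light neurofilament subunit, had −0.36 (SE 0.10). Vipr2, a neuropeptide receptor, had −0.76 (SE 0.24). Knockout cords below every wild-type cord were 7 of 9 for Chodl, 6 for Nefm and Nefl and 8 for Vipr2, so the groups overlapped in each. Chodl was also higher in wild-type replicates 1 and 2, whose score over Hox groups 9 to 13 was low, than in wild-type replicates 3 and 4. It was 12.7 and 13.6 in knockout replicates 4 and 6, whose score was lowest. The part of cord position in the level of Chodl was not tested. In the libraries with Xist above 100 CPM the log2 fold change of Chodl was −0.77.

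Other neuronal lists differed by small amounts. Of 28 presynaptic genes 25 stood lower, 10 at an unadjusted p below 0.05, with a median of −0.16. Vamp1, a vesicle SNARE, stood at 1485, 1618, 1401 and 1409.5 normalised CPM in wild-type cords against 999 to 1379 (median 1224) in knockout cords, a log2 fold change of −0.31 (SE 0.091), without overlap, and Snap25, a plasma membrane SNARE, had −0.25 (SE 0.093). Of 28 postsynaptic genes 21 stood lower, 3 at an unadjusted p below 0.05, with a median of −0.061. Of 21 sodium and calcium channel genes 12 stood higher, with a median of 0.025, Scn4b, an auxiliary sodium channel subunit, at −0.25 (SE 0.079) and Cacna2d1, an auxiliary calcium channel subunit, at 0.24 (SE 0.070). Of 22 potassium channel genes 15 stood lower, 4 at an unadjusted p below 0.05, and Kcnab2, a beta subunit, had −0.27 (SE 0.080) with all 9 knockout cords below. Of 20 excitatory dorsal horn genes 14 stood lower, with Calb2, calretinin, at −0.32 (SE 0.085), and of 19 inhibitory neuron genes 12, with Slc32a1, the vesicular GABA transporter, at −0.22 (SE 0.10). Their medians were −0.13 and −0.025. Of 11 sensory ganglion genes 8 stood higher, with a median of 0.21, and of 19 Schwann cell genes 13, with a median of 0.17 that was 0.032 without knockout replicate 7 and the library labelled knockout replicate 9.

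Mature oligodendrocyte genes stood lower and ciliary genes higher, with overlap between the groups in both scores. In score 3 of 9 knockout cords were below the wild-type range for the former and 5 of 9 above it for the latter. Of 20 mature oligodendrocyte genes 16 stood lower, 6 at an unadjusted p below 0.05, with a median of −0.19. Car2, a carbonic anhydrase, stood at 386, 400.1, 334 and 293 normalised CPM in wild-type cords against 203 to 315 (median 267) in knockout cords, a log2 fold change of −0.41 (SE 0.12), and Gjb1, connexin 32, had −0.33 (SE 0.11). Both overlapped, with 6 of 9 knockout cords below. Of 14 precursor genes 9 stood higher, with a median of 0.071, Vcan, a proteoglycan, at 0.56 (SE 0.21) and Olig2, a lineage factor, at −0.28 (SE 0.084). All 19 ependymal and cilia genes stood higher, 5 at an unadjusted p below 0.05, with a median of 0.41 that was 0.23 in the libraries with Xist above 100 CPM. Rarres2, chemerin, had 0.95 (SE 0.28) and Nnat, neuronatin, 0.70 (SE 0.24), while Foxj1, the master factor of motile cilia, stood at 38.2, 45.05, 34.6 and 43.6 against 34.3 to 53.4 (median 43.7), a log2 fold change of 0.10 (SE 0.10).

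Most of the remaining lists lay near the level of all genes. Of 20 heat shock genes 17 stood lower, 4 at an unadjusted p below 0.05, with a median of −0.10 and Hspa8, a constitutive chaperone, at −0.13 (SE 0.069), though Hspb1, a small heat shock protein of reactive glia and axons, had 1.47 (SE 0.59). Of 24 unfolded protein response genes 14 stood higher, with a median of 0.012, and of 19 clock genes 12, with a median of 0.041 and Usp2, a rhythmic deubiquitinase, at 0.41 (SE 0.11). Of 23 oxidative stress and iron genes 15 stood higher, 4 at an unadjusted p below 0.05, with Slc11a1, a phagosomal metal transporter, at 2.18 (SE 0.74) and Tfrc, the transferrin receptor, at 0.29 (SE 0.088). Of 28 genes mutated in ALS 18 stood lower, 7 at an unadjusted p below 0.05, with Tuba4a, a tubulin, at −0.28 (SE 0.085) without overlap, and Ang, angiogenin, higher at 1.13 (SE 0.33). Of 15 microRNA pathway genes 11 stood higher, with Ago2, the slicing Argonaute, at 0.20 (SE 0.087) and Drosha, the nuclear processing enzyme, at −0.14 (SE 0.056). Of 14 giant cadherin and polarity genes 9 stood higher, with Celsr1, a polarity cadherin, at 0.45 (SE 0.16). Of 15 Hox genes of groups 4 to 8, 14 stood lower, 3 at an unadjusted p below 0.05, with a median of −0.18. Of 15 in groups 9 to 13, 9 stood lower, with a median of −0.063, which was 0.29 without knockout replicates 4 and 6. Hoxb9 and Hoxa9, expressed through the trunk, had −0.32 (SE 0.10) and −0.26 (SE 0.10). Bone and cartilage genes (12 tested, median 0.11) and adipocyte genes (4 tested, median 3.16) had medians of −0.17 and 0.050 without knockout replicate 7 and the library labelled knockout replicate 9. Of the 6 genes of the sex-linked list Xist was the only one tested.

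The knockout cords differed among themselves in how far they lay from the wild-type cords. Over 59 list scores knockout replicate 2 lay within the wild-type range in 32, more than any other knockout cord, and knockout replicate 5 in 25, while knockout replicate 7 did so in 7 and knockout replicate 1 in 11. Pttg1 did not follow that order, since knockout replicate 2 had 54 counts of it, in the range of the other knockout cords. The reactive astrocyte score, for example, was 0 in knockout replicate 2, 0.34 in the library labelled knockout replicate 9, 0.97 in knockout replicate 5, 1.14 in knockout replicate 3, 1.36 in knockout replicate 8 and 1.55 in knockout replicate 6. Above these were knockout replicates 4, 1 and 7 at 2.06, 2.44 and 2.92, and the wild-type cords lay at −0.09 to 0.20. Knockout replicates 1, 4 and 7 were likewise the 3 highest in the scores of disease-associated microglia, complement, chemokines and Toll signalling. Knockout replicates 4 and 6 also held low Hoxd10, and the disease-associated microglia median was 1.21 without both, against 1.48 with them.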

How the data were processed

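Gene tables of 9 knockout and 4 wild-type libraries of mouse spinal cord were used, grouped by genotype label. Whether each library came from its own animal is not stated. Per the submitters' processing notes, reads were aligned with STAR to GRCm38 and uniquely aligned, unambiguous reads were counted with featureCounts. The strand setting is not given in the sources used here, so overlapping and antisense genes are uncertain. The deposited count column of the authors holds whole-number counts per gene and was used in every test. The CPM column deposited by the authors equals the counts scaled by their sum. The FPKM and TPM columns deposited by the authors were used in no test. Symbols, coordinates and 3′ UTRs came from GENCODE M21 on GRCm38, which named 55227 of the 55487 genes, and microRNA sequences from RefSeq on GRCm38.p6.

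Genes were tested with edgeR 4.0.16 (R 4.3.3) by quasi-likelihood with robust priors, on counts that passed filterByExpr and were scaled by TMM. P-values were adjusted over 22174 genes by the Benjamini-Hochberg method. DESeq2 1.42.0, which replaced outlying counts in the knockout group, limma 3.58.1 with voom quality weights, other scalings and filters and leaving out libraries were alternatives. Scores used log2 of normalised CPM plus 0.1. Chi-square per degree of freedom between libraries of a group was at least 7.85, so no pair matched within sampling noise. The tests were checked on simulated counts that gave each gene the same spread in both groups. Of 21620 unchanged genes in that simulation edgeR called 5, DESeq2 26 and limma 3. It held neither the larger spread of the knockout group nor its outlying libraries, so it cannot show how the tests behave on these data. Depth intervals cover counting error only.

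The members, 59 gene lists, pathway roles and naming rule were chosen with earlier results of these data known. Named were the 15 protein-coding genes higher and the 15 lower with the smallest p and at least 1 normalised CPM in the higher group, up to 4 members of each list with the smallest p and up to 2 with the highest level, the 10 genes with the largest spread among knockout cords, genes called by a tool or without 1 library, Mir146, Pttg1, Sod1, Xist, Y-linked genes, reported targets with a full site, and the 5 higher and 5 lower full-site genes with the smallest p. A few of these genes are not reported here.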

Additional observations from a re-analysis of the deposited data

Results flagged for a closer look

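Single libraries lay far from the rest of their group in 46 of 420 groups of values tested, where the gap to the nearest library as a share of the group's range exceeded 0.493 for the 9 knockout and 0.829 for the 4 wild-type libraries. Chance flags about 1 in 20 groups, and genes named for their spread or chosen as markers of a library were bound to be among them.

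Knockout replicate 7 was the outlying library in 21 of these. The gap took 0.925 of the range for Acta1, 0.913 for Atp2a1, 0.906 for Ckm, 0.844 for Neb, 0.786 for Tnnt3, 0.762 for Tnni2, 0.754 for Ttn and 0.743 for Tcap, all genes of skeletal muscle, and 0.661 for Col1a1. It took 0.629 for Il1rn, 0.559 for Cacna2d1, 0.521 for Lpp and 0.515 for Mrc1. Among list scores it took 0.965 for skeletal muscle, 0.696 for adipocyte, 0.695 for pericyte and smooth muscle, 0.657 for bone and cartilage, 0.636 for collagen and matrix, 0.605 for cell cycle and 0.593 for fibroblast and meninges genes, and the same library was lowest for dorsal horn excitatory neuron genes (0.676).

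The library labelled knockout replicate 9 was highest for Sod1 (0.863), Pttg1 (0.793), Fat4 (0.664) and the microRNA pathway score (0.733). It was lowest for Col23a1 (0.779), Slc1a3 (0.582) and the proteasome score (0.516). Knockout replicate 4 was lowest for Srebf2 (0.687) while knockout replicate 2 was highest for Arc (0.534) and knockout replicate 5 for Rnase13 (0.508).

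In the wild-type group, replicate 4 was highest for Mt2 (0.975) and B2m (0.841) and for the Schwann cell (0.899), endothelial (0.889) and reactive astrocyte (0.862) scores, and lowest for mt-Co2 (0.86) and Notch1 (0.853). Wild-type replicate 1 was highest for the skeletal muscle score (0.951), Idi1 (0.925) and Atp2a1 (0.838) and lowest for Ppbp (0.92) and Atf3 (0.905). Wild-type replicate 3 was highest for Tfrc (0.834) and wild-type replicate 2 for Rnase13 (0.912) and the proteasome score (0.833).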

How the results depend on the processing

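The call of 0 genes by edgeR held without its robust option, with other size factors, with library sizes alone, without a filter and with a filter of 1 CPM in 4 libraries, and became 381 with DESeq2, 3 with limma, 8 without knockout replicate 7 and the library labelled knockout replicate 9, 3 without knockout replicates 4, 6, 7 and 9 and 1 in libraries with Xist above 100 CPM. Leaving out 1 library gave 0 to 2 calls: Pttg1 and Col23a1 without the library labelled knockout replicate 9, Alas2 and Slc4a1 without knockout replicate 7, and Arc without knockout replicate 2. The 3177 genes at an unadjusted p below 0.05 became 2080 in libraries with Xist above 100 CPM and 1942 to 3843 when 1 library was left out, the lowest 2 without wild-type replicate 2 (1942) or 1 (2092). The causes were not tested. Without a filter the median log2 fold change of all genes was 0.10 instead of 0.017.

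Sod1 (log2 fold change 0.68, and 0.858 without knockout replicates 4 and 6) turned to −0.137 with DESeq2, −0.025 with limma, −0.152 without the library labelled knockout replicate 9, −0.098 without it and knockout replicate 7, −0.07 without knockout replicates 4, 6, 7 and 9, and −0.163 in libraries with Xist above 100 CPM. Of 3287 recomputed fold changes of the 138 genes given with one, 6 reversed and 100 gained a call, 80 of these with DESeq2. Genes given by level only were not counted. Among those, Acta1, Ttn, Atp2a1 and Neb turned from higher to lower with DESeq2, with limma and without knockout replicate 7. Of 1416 recomputed list medians 38 turned sign, in 13 lists, and 15 moved by more than the SD of the list's score among knockout cords, in muscle, adipocyte, platelet and, without knockout replicates 4, 6, 7 and 9, chemokine genes. Leaving out sets of knockout replicates 4 and 6 was chosen after seeing the data. No paired analysis was possible because the labels give the cords no replicate numbers.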
